A study of Mus musculus with 6 samples.

Results

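Mpo, Elane, Prtn3, Ctsg and Ms4a3 are transcribed together in the earliest granulocyte and monocyte progenitors, and their levels were followed here in mouse bone marrow progenitors sorted by a Hes1-GFP reporter. The 5 genes were selected on the measured differences between the groups of this series, with their known roles, and were matched by symbol to the array's annotation, which gave 1 probe set for each, 5 of 45101 probe sets and 5 of 18194 genes. All cells were lineage-negative, cKit+ and Sca1+ (LSK), the marrow fraction that holds stem cells and multipotent progenitors, and came from mice of 6 weeks with the genotype Hes1 GFP/WT. The GFP-positive and GFP-negative groups therefore both carry 1 reporter allele and were told apart by the sort alone. Each group had 3 arrays, of which replicate 1 was female and replicates 2 and 3 were male. Only these 2 states of the reporter were compared, and sorted LSK cells are themselves a mixture of subsets.

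Neutrophil granules are filled in the order in which their proteins are made. Primary, or azurophil, granules form first, at the promyelocyte stage, and store myeloperoxidase and a family of serine proteases, while lactoferrin and gelatinase go into granules made later. Myeloperoxidase (Mpo) is a haem enzyme that makes hypochlorous acid. Neutrophil elastase (Elane), proteinase 3 (Prtn3) and cathepsin G (Ctsg) are related serine proteases, and Ms4a3 is a four-span membrane protein of granulocyte-monocyte progenitors. Low transcript levels of some of these genes are known in multipotent progenitors before any granule is made.

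The genes lie at 4 places in the genome, with Prtn3 and Elane next to each other on chromosome 10 in the same orientation. The 250 bases before each start, from RefSeq on build GRCm38.p6, are shown because these 5 genes are known for their shared expression in early myeloid cells and yet differed from each other here. Capitals mark GGAAGT, a core of sites for Ets factors such as PU.1, CAACGG, a site form of Myb, and TATAA. The windows are chr11:87793534-87793783 on the plus strand for Mpo, chr10:79886062-79886311 on the plus strand for Elane and chr10:79879417-79879666 on the plus strand for Prtn3. Those of Ctsg and Ms4a3 are chr14:56102575-56102824 and chr19:11640852-11641101, both on the minus strand.
Elane: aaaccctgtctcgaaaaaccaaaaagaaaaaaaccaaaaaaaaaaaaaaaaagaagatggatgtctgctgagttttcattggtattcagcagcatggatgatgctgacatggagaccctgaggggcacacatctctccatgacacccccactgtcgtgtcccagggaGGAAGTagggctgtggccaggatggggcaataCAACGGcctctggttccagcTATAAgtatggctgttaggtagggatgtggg
Prtn3: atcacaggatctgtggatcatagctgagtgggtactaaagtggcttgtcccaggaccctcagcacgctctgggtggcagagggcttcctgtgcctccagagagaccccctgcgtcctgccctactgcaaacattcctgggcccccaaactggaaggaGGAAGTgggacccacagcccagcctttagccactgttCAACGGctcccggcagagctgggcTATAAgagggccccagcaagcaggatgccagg
Ms4a3: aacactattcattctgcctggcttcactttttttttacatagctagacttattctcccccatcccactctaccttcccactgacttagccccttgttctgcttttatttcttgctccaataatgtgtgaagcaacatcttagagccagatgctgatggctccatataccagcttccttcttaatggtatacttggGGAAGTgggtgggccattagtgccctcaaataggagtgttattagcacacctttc
Ctsg: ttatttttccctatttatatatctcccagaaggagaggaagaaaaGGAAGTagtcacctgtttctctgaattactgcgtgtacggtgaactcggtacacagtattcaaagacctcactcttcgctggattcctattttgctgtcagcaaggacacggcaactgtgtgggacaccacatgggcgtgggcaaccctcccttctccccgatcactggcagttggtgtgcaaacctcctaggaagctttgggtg
Mpo: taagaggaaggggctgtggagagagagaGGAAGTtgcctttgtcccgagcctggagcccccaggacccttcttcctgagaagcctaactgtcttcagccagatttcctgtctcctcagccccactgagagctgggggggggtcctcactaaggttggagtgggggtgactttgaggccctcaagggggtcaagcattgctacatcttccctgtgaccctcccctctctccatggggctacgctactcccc

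GGAAGT, searched on both strands, occurred in the windows of all 5 genes and in 19.74% of 32851 such windows over the mouse genes. It began 83 bases before the start of Elane, 93 before Prtn3, 55 before Ms4a3, 205 before Ctsg and 222 before Mpo. CAACGG, also searched on both strands, was in the windows of Elane and Prtn3, 51 and 56 bases before the start, against 4.05% of all windows. TATAA, searched on the sense strand, began 31 bases before Elane and 32 before Prtn3, against 16% of windows. The neighbours Elane and Prtn3 thus share the same 3 motifs in the same order and at like distances. The Runx form TGTGGT was in the window of Ctsg alone, on the other strand (14.05% of windows), and the C/EBP form TTGCNNAA in none of the 5 (9.56% of windows). No hits overlapped each other. The motifs were chosen with these sequences in view, and a match in letters is a description and does not show binding.

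The 5 genes did not form a single block: Elane and Ms4a3 were higher in every GFP-positive array, Ctsg was higher by less, and the arrays of both groups overlapped for Mpo and Prtn3. The choice of these genes was made with this contrast known, so their values in it are given as a description and without a test. Levels are log2 intensities and are compared only within a gene. Where a gene is given as read without GFP and with GFP, the values are those of the 3 GFP-negative and the 3 GFP-positive arrays, each in the order of replicates 1, 2 and 3. In bulk RNA, fewer cells that express a gene and less RNA per cell cannot be told apart.

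GFP-negative replicates 1, 2 and 3 read 8.37, 5.20 and 5.78 for Elane, and GFP-positive replicates 1, 2 and 3 read 11.81, 10.55 and 9.70. The lowest GFP-positive array lay above the highest GFP-negative array, and the female array was the highest of its group on both sides. The means were 10.68 ± 1.06 (SD, n = 3) against 6.45 ± 1.69, a log2 difference of 4.23 ± 0.95 (limma SE), or 18.8-fold. By the size of a positive difference Elane ranked 9 among 18194 genes. Y-linked genes in female arrays, which have no such transcript, lay between 3.42 and 4.69 and serve as a guide to background. Of the 5 genes, Elane in GFP-negative replicates 2 and 3 came closest to that range, and RMA shrinks differences near background. The guide is not an upper limit, since Xist in the male arrays, which lack that transcript, read 5.06 to 5.59. A reading somewhat above the guide can thus still be background. Elane in GFP-negative replicate 2, at 5.20, lay among those Xist values, so the size of its difference is uncertain.

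For Ms4a3 the 3 GFP-negative arrays read 8.38, 6.68 and 6.81 in replicate order and the 3 GFP-positive arrays 10.33, 9.95 and 9.44. Again the groups did not overlap, and the female arrays were highest in both. The means of 9.90 ± 0.45 (SD, n = 3) and 7.29 ± 0.95 gave a log2 difference of 2.61 ± 0.51 (limma SE), or 6.12-fold, rank 52 of 18194.

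Levels of Ctsg were 10.66, 10.63 and 10.74 without GFP and 12.51, 11.04 and 11.08 with GFP. The 3 GFP-negative arrays were nearly level, all GFP-positive arrays lay above them, and GFP-positive replicate 1 stood apart from the other two. The log2 difference was 0.87 ± 0.42 (limma SE), or 1.83-fold, and 0.39 without GFP-positive replicate 1.

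Levels of Mpo were 12.84, 12.83 and 12.85 without GFP and 13.38, 12.74 and 12.65 with GFP. The GFP-positive values lay on both sides of the GFP-negative ones, which agreed to an SD of 0.012. The log2 difference was 0.08 ± 0.23 (limma SE), and -0.15 without GFP-positive replicate 1.

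Levels of Prtn3 were 11.26, 11.37 and 11.83 without GFP and 11.93, 11.12 and 11.52 with GFP. The ranges of the groups overlapped over most of their length, with a log2 difference of 0.04 ± 0.27 (limma SE), and -0.17 without GFP-positive replicate 1. The neighbouring gene Elane, with the same 3 promoter motifs shown above, spanned 6.61 log2 units over the 6 arrays where Prtn3 spanned 0.81.

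**Figure D1:**
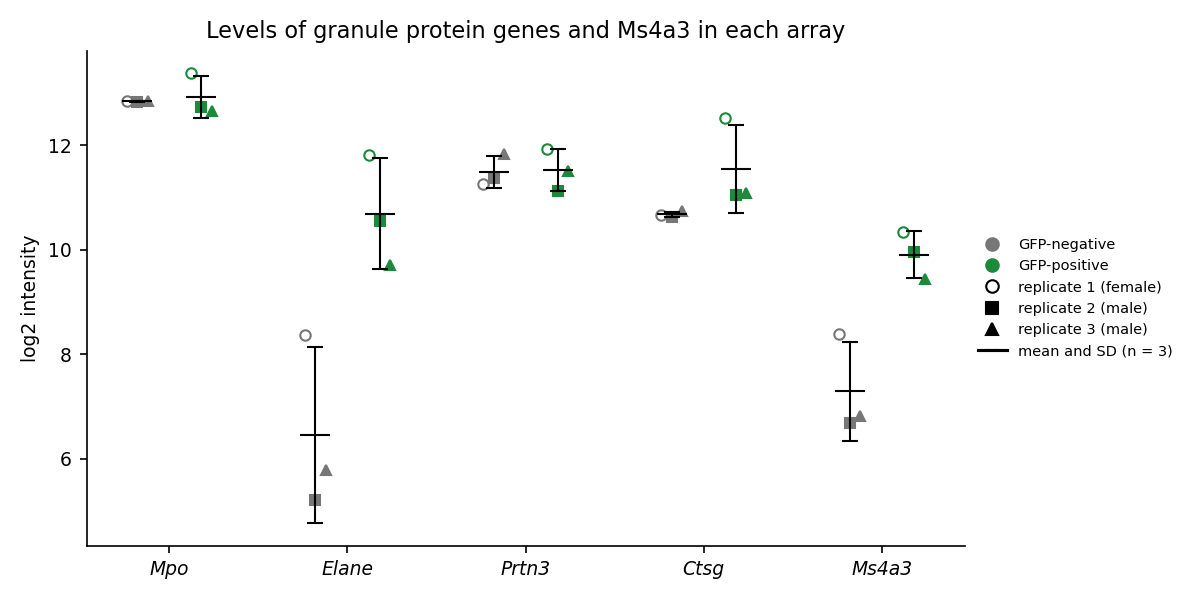
Log2 intensity (y axis) of the 5 genes (x axis) in each array, with grey for GFP-negative, green for GFP-positive, open circles for the female replicate 1 and filled symbols for the male replicates 2 and 3. Bars show mean and SD (n = 3). Elane and Ms4a3 separate into 2 levels, with means of 6.45 and 10.68 for Elane, while the groups of Mpo and Prtn3 overlap.

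Elane, Ms4a3 and Ctsg were the 3 of 5 genes whose arrays did not overlap, all higher in GFP-positive cells, where 5.89% of all genes were higher and 5.51% lower without overlap. By limma 0 of 18194 genes passed in this contrast at a Benjamini-Hochberg adjusted p under 0.05 (0%), so none of the 5 did. At an unadjusted p under 0.05 there were 1221 genes (6.71%). The genes were chosen with this contrast in view, and nothing is read from these counts.

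The order of the differences was Elane, Ms4a3, Ctsg, Mpo and Prtn3, and the last pair differed by far less than their errors. Taking arrays of equal replicate number together, the differences of Elane were 3.44, 5.35 and 3.91 for numbers 1, 2 and 3. For Ms4a3 they were 1.95, 3.27 and 2.63, and for Ctsg 1.86, 0.40 and 0.35. Elane and Ms4a3 were least different in the female pair, Ctsg most. Within the 4 male arrays alone the differences were 4.63 for Elane, 2.95 for Ms4a3, 0.38 for Ctsg, -0.15 for Mpo and -0.28 for Prtn3.

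**Figure D2:**
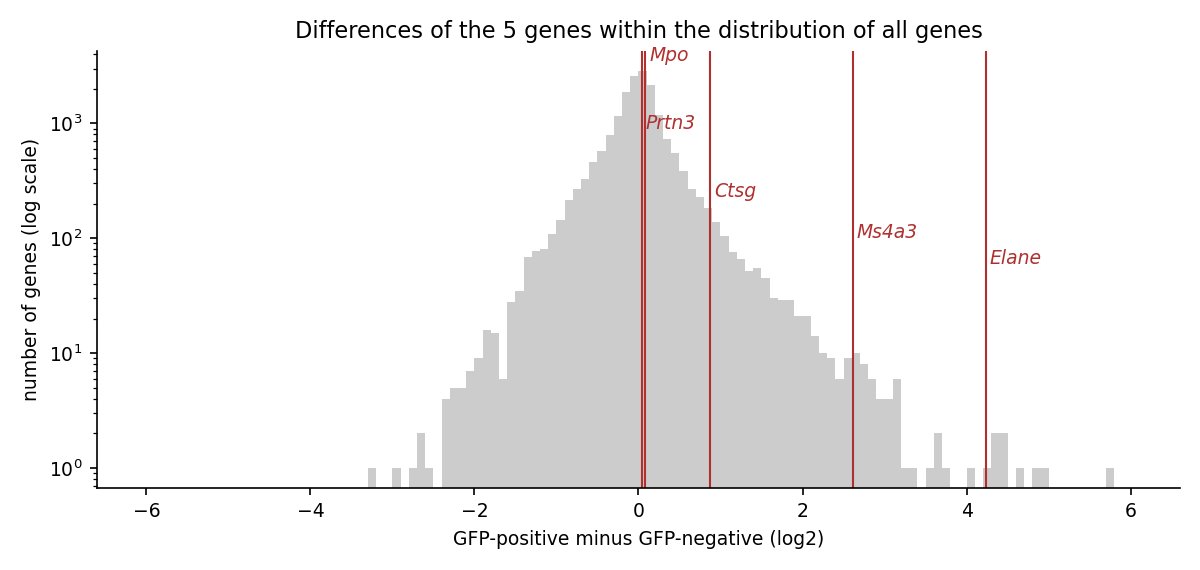
Number of genes (y axis, log scale) by difference between GFP-positive and GFP-negative means (x axis, log2) over 18194 genes, with a red line at each of the 5 genes. Mpo and Prtn3 lie at the centre, Ctsg at 0.87, and Ms4a3 and Elane at 2.61 and 4.23 in the upper tail.

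Values of some other cell types moved with the groups and with single arrays. GFP-positive replicate 1, the highest array for all 5 genes, had a summed intensity of 8830 over 9 of 9 endothelial markers and 9070 over 5 of 5 stromal markers. In the other 5 arrays these sums lay between 1230 and 2860 and between 876 and 1650. The stromal sum hides Cxcl12, which was higher in every GFP-positive array, at 12.52, 9.27 and 8.33 against 5.34 to 5.52. The groups overlapped for the other stromal markers, Pdgfrb, Lepr, Col1a1 and Col1a2, and Pdgfrb was bright in all arrays, at 9.07 to 10.44. The sum over 7 of 9 mature neutrophil markers was 4254 and 7918 in the female GFP-negative and GFP-positive arrays, against 709 to 1169 in the 4 male arrays. S100a8 and S100a9 were the brightest of these in the female arrays, at 10.62 and 11.02 without GFP and 11.17 and 12.28 with GFP. The other measured markers of that list read 4.18 to 8.26 there. Mmp8, a collagenase of late neutrophil granules, stayed within the background guide in all arrays. Sums over 12 of 12 monocyte and macrophage markers were 2190 to 3520 in GFP-negative and 2730 to 6600 in GFP-positive arrays. Erythroid marker sums over 6 of 8 genes were 560 to 740 and 3690 to 6080, and megakaryocyte sums over 5 of 5 genes 1360 to 2720 and 6060 to 7170, in the same order. Sums for mast cells and basophils (7 of 8 genes) were 981 to 1080 and 1570 to 2560, and for B cells (7 of 8 genes) 1080 to 2540 and 2830 to 9530. Such sums follow their brightest genes, and some markers went the other way. The log2 differences ran from -2.20 ± 0.40 (limma SE) for Csf1r to 4.38 ± 1.34 for C1qb among monocyte and macrophage markers. Among mast cell and basophil markers they ran from -1.37 ± 0.44 for Ms4a2 to 2.11 ± 0.96 for Fcer1a. Csf1r and Ms4a2 were lower without overlap. Sums over 4 of 7 lineage antigens were lower in GFP-positive arrays, at 527 to 669 against 702 to 1190. T and NK cell sums (6 of 7 genes) overlapped, at 2540 to 2650 without GFP and 2050 to 3070 with GFP. Plasma cell sums (5 of 5 genes) were 1140 to 1580 and 1760 to 3100, in that order. The part of these cells in the results was not tested. Of the sort antigens cKit was measured at 10.47 to 10.72 without GFP and 9.69 to 10.51 with GFP, while Ly6a, which encodes Sca1, was not analysed here. The pan-leukocyte gene Ptprc was lower in every GFP-positive array, at 11.37 to 11.52 without GFP and 10.99 to 11.35 with GFP. Cd34 and Flt3, progenitor genes that were not part of the sort, were lower in every GFP-positive array, at 12.28 to 12.43 against 11.48 to 11.86 and at 12.04 to 12.13 against 10.51 to 11.99. The 3'-to-5' difference of the Gapdh control probe sets, a sign of RNA quality, was 0.71 to 0.86 in GFP-negative and 0.65 to 0.97 in GFP-positive arrays.

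Female and male arrays were compared with the GFP group as a term, a contrast balanced against the GFP comparison and not used to choose the genes. Elane was at 10.09 on average in the 2 female and 7.81 in the 4 male arrays, and was higher in the female array within both groups, by 1.69 among GFP-positive and 2.88 among GFP-negative arrays. The difference of 2.28 ± 0.41 (limma SE) did not pass over all genes (limma adjusted p = 0.454). Ms4a3 was higher in the female array by 0.64 and 1.64 within the GFP-positive and GFP-negative groups, 1.14 ± 0.30 in all (limma adjusted p = 0.583). For Ctsg the female array stood higher by 1.45 among GFP-positive arrays and lower by a difference of -0.02 among GFP-negative ones, 0.71 ± 0.36 in all (limma adjusted p = 0.765), so that its difference rests on GFP-positive replicate 1. Mpo at 0.35 ± 0.21 and Prtn3 at 0.13 ± 0.31 did not pass either (limma adjusted p = 0.821 and 0.960). The difference of Mpo likewise rests on that array, at 0.69 among GFP-positive and 0.0054 among GFP-negative arrays, and that of Prtn3 turned to -0.34 without it. At an unadjusted p under 0.05, 2 of the 5 genes were higher in females, Elane and Ms4a3, where 3.98% of all genes were higher and 2.91% lower. Over all genes 2 passed after adjustment, 0.0110%, namely Xist and the Y-linked Kdm5d. With 2 female arrays, both numbered replicate 1, sex and replicate number cannot be told apart, and a missed threshold does not show that the levels were equal.

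Many genes of the late granule list also stood high in the female arrays. Others differed little, such as Mmp9 at 0.28 ± 0.25 and Itgb2l at 0.17 ± 0.20 (log2 female minus male, limma SE). Of 15 measured of 17 listed, 14 had a positive female-minus-male difference and 7 were higher at an unadjusted p under 0.05, against the same 3.98% of all genes, and 0 passed by limma after adjustment. Their median was 1.14, against 0.05 over all genes. S100a9, a subunit of the alarmin calprotectin, was at 3.68 ± 0.38 (log2 female minus male, limma SE), its partner S100a8 at 2.88 ± 0.28 and the chitinase-like Chil3 at 3.00 ± 0.23. Chil3 read 3.07 to 3.23 in the 4 male arrays, under the background guide, so the size of its difference is uncertain. S100a9 was at 11.02 and 12.28 in the female arrays and at 6.47 to 9.10 in the male ones. Lysozyme (Lyz2) was at -0.29 ± 0.18.

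**Figure D3:**
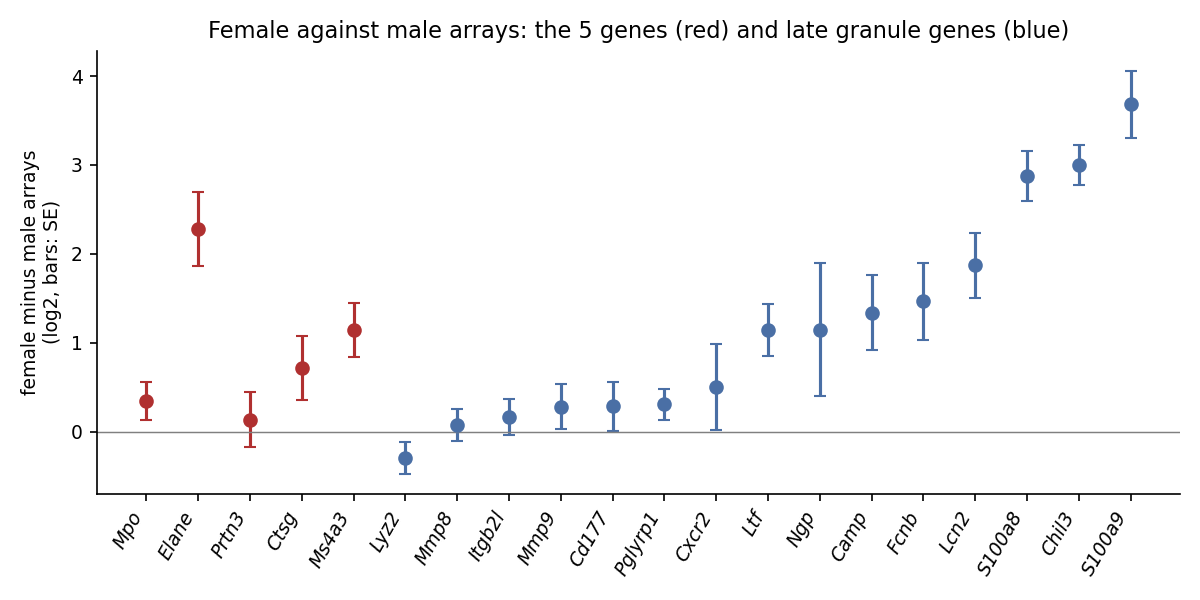
Log2 difference between female and male arrays with the GFP group as a term (y axis; bars show SE) for the 5 genes in red and 15 late granule genes in blue (x axis). Elane at 2.28 and Ms4a3 at 1.14 stand beside S100a8, Chil3 and S100a9 at 2.88 to 3.68, while Mpo and Prtn3 lie near 0.

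In the GFP contrast the same late granule genes had a median of 0.05 (0.008 over all genes), which took either sign when 1 array was left out. It was -0.09 without GFP-positive replicate 1, -0.08 and -0.13 without GFP-negative replicates 2 and 3, and 0.20 without GFP-negative replicate 1 or GFP-positive replicate 2. At an unadjusted p under 0.05, 0 of the 15 genes were found in either direction by limma, against 3.33% of all genes higher and 3.38% lower, and none separated the groups. The difference was largest in S100a9 at 1.69 ± 1.45 (limma SE) and smallest in Ngp, an early component of secondary granules, at -1.32 ± 0.79. Lyz2 was at -0.17 ± 0.19 and Pglyrp1, an antibacterial peptidoglycan-binding protein, at 0.06 ± 0.19. S100a8, named outside the rule after its values were seen, was at 0.14 ± 1.13.

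Genes for packing and processing of granule proteins were near level. The median over 9 measured of 10 was -0.03, and 3 had a positive difference, against 51.3% of all genes. Srgn, the proteoglycan serglycin that holds proteases in granules, lay between 12.84 and 13.04 in all arrays, with a difference of -0.04 ± 0.14 (limma SE). Ctsc, the dipeptidase that activates the granule serine proteases, was at 0.34 ± 0.48, and its inhibitor Cst7, cystatin F, at -0.51 ± 0.38. Serpinb1a, an inhibitor of elastase, proteinase 3 and cathepsin G, read 10.77, 10.85 and 11.62 without GFP and 9.52, 10.57 and 11.30 with GFP, in replicate order. Its difference was -0.61 ± 0.49. Its lowest array was GFP-positive replicate 1, in which all 3 of those proteases were highest. Its highest was GFP-negative replicate 3, in which Prtn3, at 11.83, was also the highest of its group. A link between them was not tested.

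The chaperones Calr and Canx, of which calreticulin binds the myeloperoxidase precursor, were at -0.03 ± 0.18 and 0.17 ± 0.16. The disulfide isomerase Pdia3 was at -0.02 ± 0.15, and the adaptor subunit Ap3b1, which sorts cargo to granules, at -0.05 ± 0.24. Lyst, a regulator of lysosome and granule size, was at 0.79 ± 0.32, the only gene of the list with an unadjusted p under 0.05, where 3.33% of all genes were higher (limma adjusted over all genes, 0 of 9 passed).

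Transcription factors known to act on these genes were mostly lower, by amounts that did not pass. The median over 11 measured of 12 was -0.26, and 2 had a positive difference, against 51.3% of all genes. The direction of the list was not tested. Its median was -0.40 without GFP-negative replicate 3 and -0.13 without GFP-negative replicate 1. By limma 0 passed over all genes, and Spi1 alone was lower at an unadjusted p under 0.05, against 3.38% of all genes. Spi1, which encodes PU.1, read 9.66, 9.88 and 9.75 without GFP and 9.02, 9.30 and 9.46 with GFP. The groups did not overlap, with a difference of -0.50 ± 0.17 (limma SE). Myb, a factor of immature progenitors, likewise did not overlap, at -0.21 ± 0.14.

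Cebpa, which drives the granulocyte-monocyte fate, read 9.75, 10.08 and 9.61 without GFP and 10.38, 8.63 and 7.91 with GFP, so that GFP-positive replicate 1 lay highest and the other two lowest. Its difference was -0.84 ± 0.62, and that of Cebpb -0.46 ± 0.65. Irf8, a monocyte and dendritic cell factor, was at -1.45 ± 0.86 and Gfi1, a repressor needed for neutrophils, at -0.42 ± 0.67. Runx1 was at -0.22 ± 0.18, its partner Cbfb at 0.02 ± 0.18, Cux1 at -0.26 ± 0.21, Gata2 at 0.13 ± 0.29 and the monocyte factor Klf4 at -0.23 ± 0.83.

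Other early granulocyte-monocyte genes did not follow Elane and Ms4a3. Of 11 measured of 14, 4 had a positive difference, against 51.3% of all genes. The median was -0.16, and 0 passed by limma over all genes. Hp, the haemoglobin-binding haptoglobin, had the largest difference, at 6.44, 6.25 and 7.12 against 8.77, 7.87 and 7.80. Its arrays did not overlap and the difference was 1.54 ± 0.36 (limma SE), the only one in the list at an unadjusted p under 0.05, where 3.33% of all genes were higher. Csf3r, the receptor for the granulocyte growth factor, had the smallest at -0.71 ± 0.30, also without overlap. Plac8 at -0.16 ± 0.19 and Nkg7, a granule membrane protein of cytotoxic and myeloid cells, at -0.11 ± 0.22 stayed near 0.

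Among serine proteases of other blood cells a few stood far above the rest. Of 17 measured of 21, 7 were under the upper end of the background guide in all arrays, so that their small differences say little about their level. Over all 17, 14 had a positive difference, against 51.3% of all genes, and the median was 0.11. By limma 0 passed over all genes, while an unadjusted p under 0.05 was reached by 4 genes, all higher, where 3.33% of all genes were higher. Those were Gzma, a protease of cytotoxic cells, at 3.17 ± 0.34 (log2 difference, limma SE), the mast cell proteases Mcpt4 at 2.80 ± 0.98 and Cma1 at 1.96 ± 0.21, and the tryptase Tpsb2 at 0.81 ± 0.26. Mcpt4 was at 4.29 to 4.38 in GFP-negative and at 9.38, 5.32 and 6.74 in GFP-positive arrays, highest in replicate 1 as Ctsg was. Its GFP-negative arrays, and replicates 1 and 2 of those for Gzma at 4.04 and 4.20, lay within the background guide, where the size of a difference is uncertain. The smallest difference was that of Mcpt1, at -0.25 ± 0.15 and one of the 7 under that upper end, and Mcpt8 was at 0.20 ± 0.35. Granzyme B (Gzmb) was at 5.35 to 5.57 without GFP and read 5.50, 9.05 and 8.72 with GFP, so that here GFP-positive replicate 1 was level with the GFP-negative arrays. Its difference was 2.26 ± 0.94.

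In the eosinophil granule list, 5 measured of 7 had a median of -0.06, between Epx, the eosinophil peroxidase, at -0.28 ± 0.18 and the receptor Il5ra at 0.44 ± 0.44. Siglecf and Prg2 were at -0.06 ± 0.34 and 0.20 ± 0.68. Prg3 was under the upper end of the background guide in all arrays, and Epx read 4.53 to 5.13, close to it. Il5ra read 4.80 to 5.19 except in GFP-positive replicate 2, at 6.40. The small differences of such dim genes say little about their level. Of the other haem peroxidases Lpo was at 0.79 ± 0.73 through GFP-positive replicate 3 at 7.60, and Pxdn at 1.03 ± 0.88 through GFP-positive replicate 1 at 8.13. Their other arrays were at 4.76 to 5.73 and 4.79 to 5.13. The list's median of 0.79 over 3 of 4 genes thus rests on single arrays and was -0.03 without GFP-positive replicate 1, and 0 of these genes passed by limma.

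**Figure D4:**
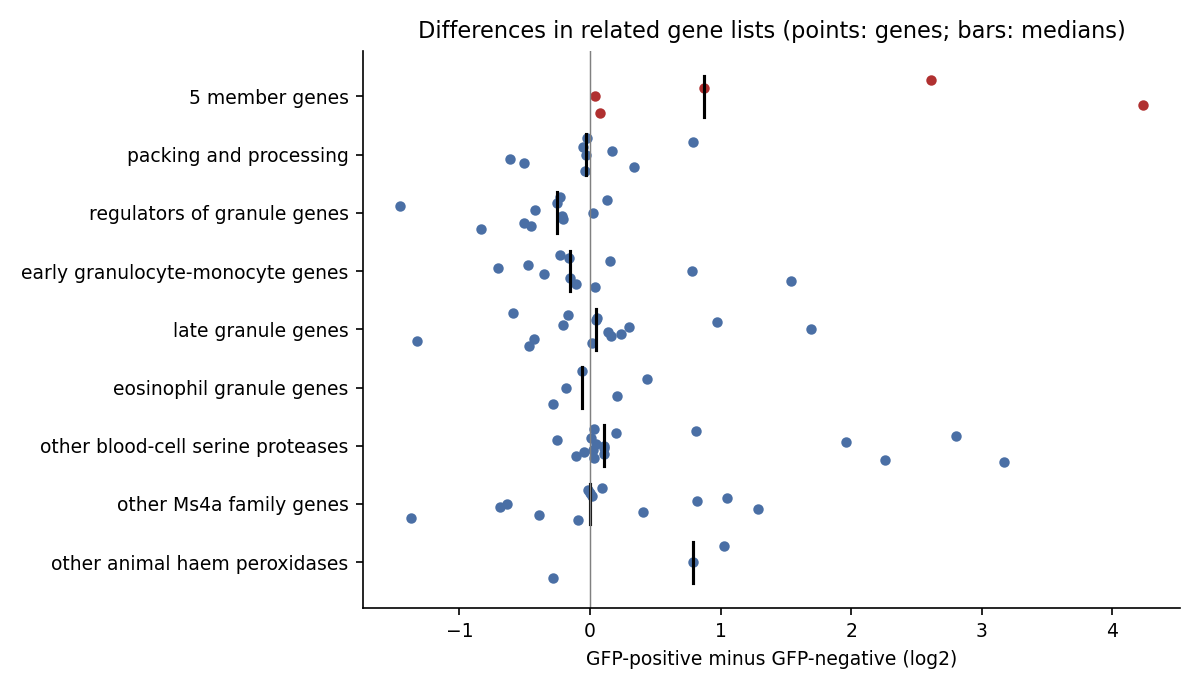
Difference between GFP-positive and GFP-negative means (x axis, log2) for the 5 genes in red and the genes of 8 related lists in blue, 1 point a gene, with a black bar at each median. The medians of 7 lists lie between -0.26 and 0.11, and that of 3 haem peroxidases at 0.79.

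Genes beside the 5 on the chromosome, the nearest 3 measured protein-coding genes on each side in RefSeq order, differed from one place to the next. Around Prtn3 and Elane, Plppr3, a phosphatase-related membrane protein, read 8.58, 8.58 and 8.57 without GFP and 7.58, 7.89 and 7.45 with GFP. It was lower without overlap, at -0.94 ± 0.17 (limma SE), and lies on the side of Prtn3. Med16, on the side of Elane, was at -0.27 ± 0.18, and Ptbp1, R3hdm4 and Kiss1r lay between -0.13 and 0.21. Elane is thus the only gene of its neighbourhood with a difference above 1 (log2) here.

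Ms4a3 lies next to Ms4a2, the beta chain of the IgE receptor in mast cells and basophils. Ms4a2 went the other way, at 7.41, 8.19 and 7.22 in GFP-negative and at 5.64, 6.01 and 7.05 in GFP-positive arrays, a difference of -1.37 ± 0.44 (limma SE) without overlap. Over 13 measured of 15 other Ms4a family genes the median was 0.00 and 7 were positive, against 51.3% of all genes. By limma 0 passed over all genes, and Ms4a2 alone was below an unadjusted p of 0.05, where 3.38% of all genes were lower. On the same side of Ms4a3, Ms4a4d was highest in the family after it, at 1.29 ± 0.54, with GFP-negative arrays at 4.21 to 4.54, within the background guide, and overlapping groups. Ms4a6d, between them, was at 0.82 ± 0.39, also with overlap. On the other side Oosp2, Oosp1 and Oosp3 lay between -0.95 and -0.13. Ms4a6b, Ms4a6c and Ms4a15 were at -0.69 ± 0.41, -0.63 ± 0.52 and 0.09 ± 0.21.

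Ctsg lies in the protease cluster of chromosome 14 between Mcpt8 and the granzyme Gzme. Mcpt4, beyond Mcpt8, was at 2.80 without overlap, as given above, a larger difference than that of Ctsg at 0.87. The other neighbours lay from -0.10 to 0.20, and Gzme, Gzmd, Gzmg and Mcpt2 were under the upper end of the background guide in all arrays. Beside Mpo lie Lpo and, beyond Mks1, Epx, whose values are given above. Tspoap1 on the other side was at 0.47 ± 0.41, with GFP-positive replicate 1 at 5.79 and the other arrays at 4.23 to 4.48, within the background guide.

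**Figure D5:**
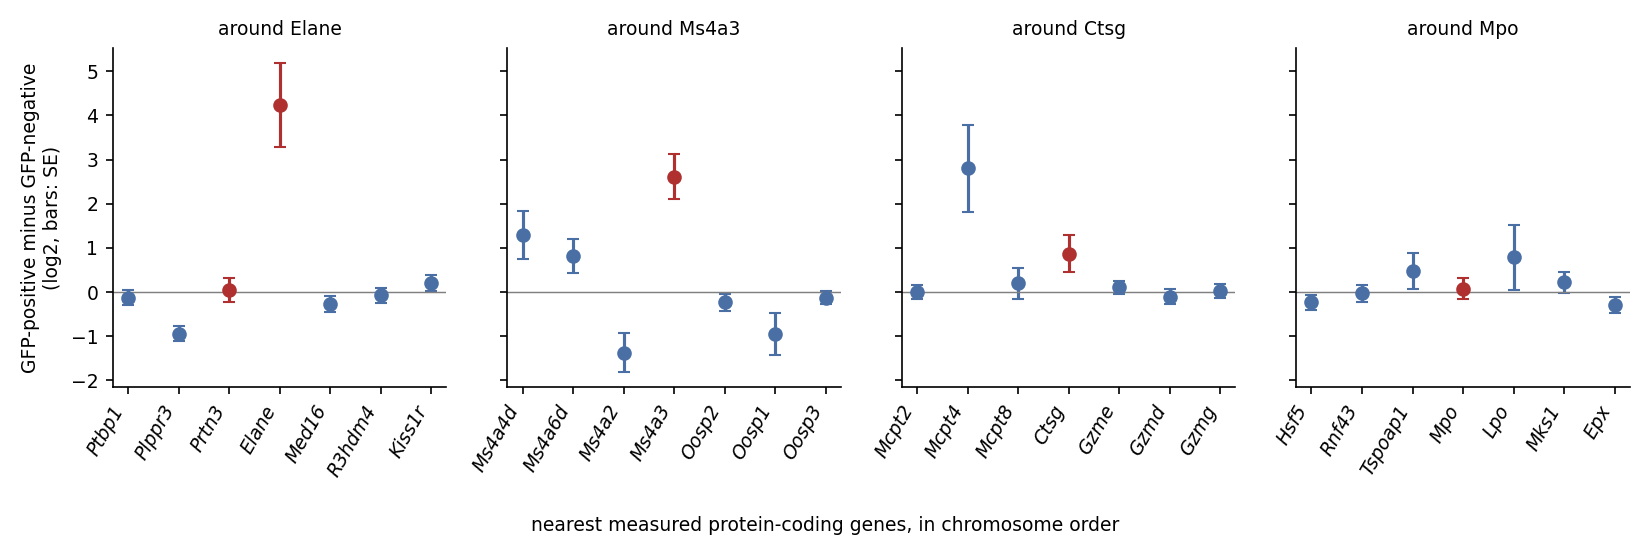
Difference between GFP-positive and GFP-negative means (y axis, log2; bars show SE) for the nearest measured protein-coding genes in chromosome order (x axis) around Elane and Prtn3, Ms4a3, Ctsg and Mpo, with the 5 genes in red. Elane at 4.23 stands beside Prtn3 at 0.04, and Ms4a3 at 2.61 beside Ms4a2 at -1.37, while near Ctsg at 0.87 stands Mcpt4 at 2.80.

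The mean of the 5 genes, each centred on its own mean, was -0.23, -1.19 and -0.93 without GFP and 1.46, 0.55 and 0.34 with GFP. Elane and Ms4a3 supply most of that pattern. Among genes with a mean level of 6 or more, the closest to it over the 6 arrays were Papss2, which makes the sulfate donor for proteoglycans (Pearson r = 0.992), Polr2m (0.991), the CTP synthase Ctps (0.985) and the phosphodiesterase Pde2a (0.982). Next came the phosphatase Dusp10, the cytokinesis protein Anln, Tnip1, the cell cycle factor E2f8, the angiopoietin receptor Tek and 4933438B17Rik, at 0.974 to 0.981. These correlations describe 6 arrays that fall into 2 groups, and the search ran over all such genes. Papss2 read 6.74, 5.43 and 5.84 without GFP and 9.40, 8.49 and 7.75 with GFP. Its female array was highest in each group as for Elane, which follows in part from its choice by similarity.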

How the data were processed

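The 6 arrays were deposited as 1 table of probe set intensities on a linear scale. The authors made these intensities with RMA, per the submitters' processing notes. Its version is not given in the sources used here, nor its settings. The quantile step removes shifts shared by most genes. Log2 was taken with no pseudocount. Of 45101 probe sets 34958 carried 1 gene symbol in the platform annotation, 932 several and 9211 none, and the probe set with the highest mean stood for each of 18194 genes. No dim gene was left out. The fit used limma 3.58.1 in R 4.3.3 without covariates for GFP, and with the GFP group as a term for sex, with Benjamini-Hochberg adjustment over all genes, and was tested on simulated data. Figures used matplotlib 3.10.9 in Python 3.11.15.

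The members and the gene lists were chosen with earlier results of these data known. Genes named were the 5 members, all packing and regulator genes, the 3 brightest and the 2 extreme genes of each other list, the neighbours on the chromosome and the 10 genes of most similar pattern. Genes named otherwise were chosen after their values were seen. The labels do not say whether arrays came from separate animals. By sex alone, the female replicate 1 must come from other animals than the male replicates 2 and 3. Errors and p-values reflect the spread between these 6 arrays, and the part between replicates 2 and 3 is possibly technical. The number of arrays limits the precision. Alternatives are the mean of probe sets, a filter at the 40th percentile, a pseudocount of 16, renewed normalisation, other variance priors and weights, the replicate number as a block, sex, another threshold and the omission of each array.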

Additional observations from a re-analysis of the deposited data

Results flagged for a closer look

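Mpo and Prtn3 went opposite ways in the female pair and in both male pairs. For Mpo the GFP-positive minus GFP-negative difference was 0.53 in the female pair and -0.09 and -0.20 in the male pairs. The sexes' contrasts differed by 0.68 (limma interaction adjusted p = 0.766). For Prtn3 the pairs gave 0.67, -0.25 and -0.31, and the sexes differed by 0.95 (limma interaction adjusted p = 0.797). Neither difference passed, and the interaction was chosen after the values were seen. Over all genes 27.7% had a female pair opposed to both male pairs, and limma called 0 of 18194 interactions (1317 at an unadjusted p under 0.05).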

How the results depend on the processing

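Elane and Ms4a3 stayed higher in GFP-positive arrays under the 16 alternatives run, between 3.61 and 5.19 and between 2.31 and 3.16. Averaging probe sets, the filter, another variance prior, the replicate block and sex as a covariate could not change a member's difference. Each member has 1 probe set, which passed the filter, and block and sex are balanced against GFP. Ctsg lay between 0.377 and 1.12, and Mpo and Prtn3 took either sign, between -0.149 and 0.217 and between -0.279 and 0.238. The median of the 5 lay between 0.385 and 1.12 when 1 array was left out. The limma count of 0 genes in the GFP contrast became 1 with genes below the 40th percentile left out and 1 at an adjusted p under 0.10. Without 1 array it lay between 0 and 5, with 5 without GFP-positive replicate 3. The sex count of 2 became 0 with probe sets averaged per gene, 1 with log2(value + 16) and 0 in each case when 1 array was left out. The female-minus-male difference of Prtn3 reversed to -0.342 and -0.0183 without GFP-positive replicates 1 and 2, and that of Ctsg to -0.0247 without replicate 1; without 1 array their highest values were 0.61 and 1.45. The cause was not tested. Eosinophil granule genes had a median of 0.107 with array weights, -0.422 in males alone and -0.212 to -0.0525 without 1 array. Other serine proteases and Ms4a genes moved to 1.08 and -0.514 above the 40th percentile, which leaves fewer genes. Haem peroxidases were at -0.105 in males alone and between -0.0314 and 1.4 without 1 array, and above the 40th percentile none of them stayed to give a value. When 1 array was left out, list medians lay between -0.401 and -0.13 for regulators, -0.201 and -0.102 for early genes, -0.128 and 0.204 for late granule genes, -0.0873 and 0.0331 for packing genes, -0.00395 and 0.174 for serine proteases and -0.0673 and 0.123 for Ms4a genes. The female-minus-male difference of Mpo lay between 0.00536, without GFP-positive replicate 1, and 0.686. The replicate block gave 0 genes in the GFP contrast and a median of 0.87 for the 5 genes, a value that a balanced block cannot change. Deviations of equally numbered arrays correlated at 0.124, 0.0503 and 0.0922, each array best with its own number. That is a hint from the data and does not show that numbers pair the samples. The value of 0.124 is that of the replicate 1 arrays, both female, for which shared sex and shared number cannot be told apart. Deviations from a group mean are also not independent of each other.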
